A study of Mus musculus with 7 samples.

Results

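Atf4 and genes that it controls under amino acid stress were read in mouse liver. The 10 genes Atf4, Atf5, Asns, Trib3, Ddit3, Chac1, Sesn2, Psat1, Phgdh and Ppp1r15a were chosen by name as genes of the integrated stress response, with the differences between genotypes in these same arrays already known. Those differences are therefore given as a description and support nothing. Of the 10 genes, 9 had a probe, with 2 probes for Psat1 and 1 for each other gene, so that 10 of 23574 probes and 9 of 16462 named genes belong to the set. Trib3, a pseudokinase that restrains ATF4 and CHOP, was not analysed here.

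All livers came from mice fed chow. The knockouts were 3 C3ar1-/- mice, which lack the receptor for the complement peptide C3a, and the controls were 4 wild-type littermates. Each 2-colour array held RNA of 1 mouse beside a reference made from the livers of 6 wild types. The labels used here state no age, sex, strain or deleted segment. Wild types are numbered 1 to 4 and knockouts 2 to 4, as in the titles. Values are log10 ratios of mouse over pool. The labels give neither the base of the logarithm nor the direction, so both are assumptions, and the opposite direction would turn every sign. The array titles name the pool before the mouse. A ratio tells how a mouse differed from the pool and not how strongly a gene was expressed, so levels of different genes cannot be compared, nor can the tissue be checked for the presence of its markers.

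In the integrated stress response, kinases that sense missing amino acids, misfolded protein in the endoplasmic reticulum, heme shortage or viral RNA phosphorylate the initiation factor eIF2. General translation then slows, while the mRNA of the transcription factor ATF4 is translated more because of short reading frames upstream of its coding sequence. ATF4 binds a composite C/EBP-ATF element and raises genes for amino acid synthesis, uptake and tRNA charging, along with factors that end the response. In liver the pathway answers to diets that lack an essential amino acid and to secretory stress. Much of ATF4 control acts on translation and protein stability, which RNA arrays do not read.

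Of the promoters, 3 are shown because they hold, within the 250 bases before the RefSeq start, a match to 1 of the 2 elements through which ATF4-type factors bind. Capitals mark the match, and each is written 5′ to 3′ in the direction of the gene (RefSeq, GRCm38.p6). The Asns stretch is chr6:7693210-7693309 on the minus strand, the Chac1 stretch chr2:119350992-119351241 on the plus strand and the Ppp1r15a stretch chr7:45526269-45526368 on the minus strand.
Asns: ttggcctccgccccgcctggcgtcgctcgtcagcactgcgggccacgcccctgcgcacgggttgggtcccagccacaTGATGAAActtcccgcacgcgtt
Chac1: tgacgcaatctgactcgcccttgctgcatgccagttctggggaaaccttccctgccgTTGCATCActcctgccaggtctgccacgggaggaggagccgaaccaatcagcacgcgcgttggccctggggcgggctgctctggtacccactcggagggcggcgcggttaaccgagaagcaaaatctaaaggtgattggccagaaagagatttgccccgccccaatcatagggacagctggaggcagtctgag
Ppp1r15a: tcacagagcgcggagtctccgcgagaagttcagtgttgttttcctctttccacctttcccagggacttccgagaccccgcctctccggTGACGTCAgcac

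The motif TGATGNAA, the core of the C/EBP-ATF element, was searched on both strands. It begins 23 bases before the start in Asns and, on the opposite strand, 193 bases before it in Chac1. The motif TGACGTCA, the full cyclic AMP response element, reads the same on both strands and begins 12 bases before the start in Ppp1r15a. All 10 genes were matched in the RefSeq table, with 12 start windows. TGATGNAA was in 2 of these 12 windows and in 3.45% of 32851 windows of equal length, and TGACGTCA was in 1 of 12 and in 1.55%. The motifs do not overlap each other here. They were chosen after the values were seen, a match is not evidence of binding, and no binding was measured.

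Atf4, which encodes the transcription factor at the centre of the response, gave 0.0155, 0.0017, 0.0143 and 0.0011 in wild-type livers 1 to 4 and 0.0847, 0.0734 and 0.0895 in knockout livers 2, 3 and 4. Every knockout lay above every wild type, and the lowest knockout was well clear of the highest wild type. The means were 0.0825 ± 0.00827 (SD, n = 3) in the knockouts and 0.00815 ± 0.00781 (SD, n = 4) in the wild types. The difference of 0.0744 ± 0.0157 (SE) is 1.19-fold in base 10 (95% interval 1.09 to 1.29) and would be 1.05-fold in base 2. The SE of this moderated fit borrows from the spread of all probes. The spread of Atf4 among mice of 1 genotype, 0.00800 as a pooled SD, was lower than in all but 0.577% of probes, where the median probe had 0.0360. The groups of Atf4 were thus set apart by a small shift between tightly bunched values.

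Atf5, a relative of ATF4 whose mRNA is likewise translated under stress, scattered more. It read 0.0998, 0.0195, -0.0270 and -0.0802 in wild-type livers 1 to 4, and 0.145, -0.0082 and 0.111 in knockout livers 2, 3 and 4. Knockouts 2 and 4 exceeded every wild type, while knockout 3 lay among them. The difference was 0.0795 ± 0.0505 (SE), with a 95% interval from -0.0380 to 0.197, on a far wider spread than that of Atf4. Without knockout 2 it was 0.0482, without knockout 3 0.125 and without wild type 4 0.0518. Ddit3, which encodes the proapoptotic factor CHOP, gave 0.0026, -0.105, 0.0188 and 0.0173 in the wild types and 0.109, -0.175 and 0.106 in the knockouts. Knockouts 2 and 4 were the highest of the 7 mice and knockout 3 the lowest, and the group means were 0.0132 ± 0.163 (SD, n = 3) and -0.0166 ± 0.0595 (SD, n = 4). The difference of 0.0298 ± 0.0715 (SE) was smaller than this spread. It was -0.0182 without knockout 2, -0.0163 without knockout 4, 0.124 without knockout 3 and 0.000300 without wild type 2.

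**Figure D1:**
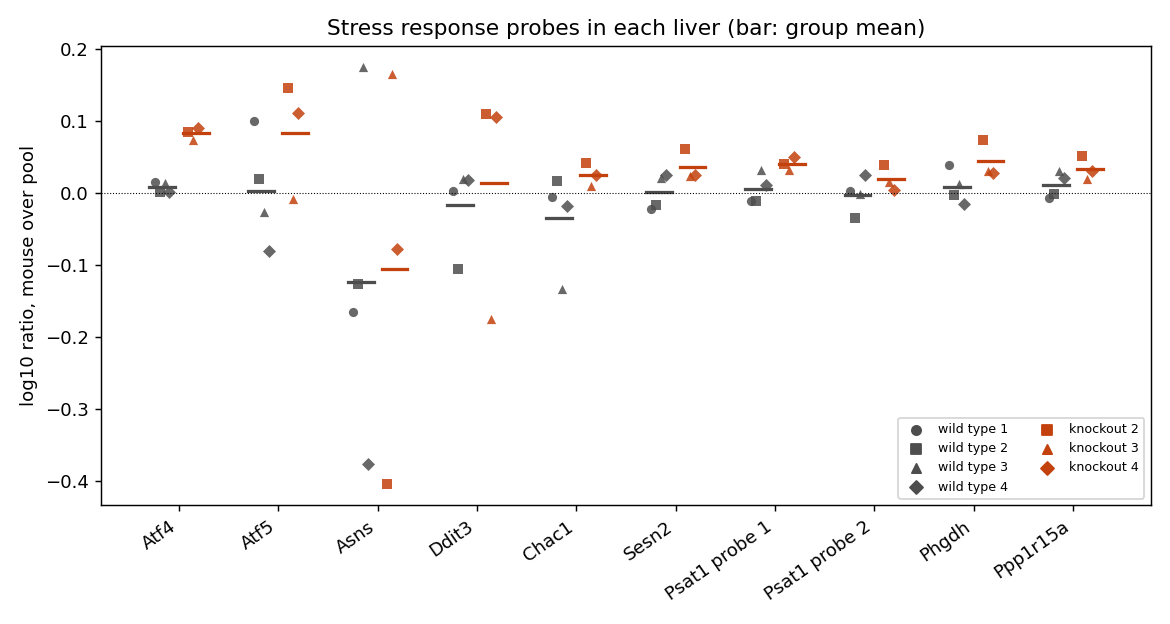
The plot of member values by mouse shows the log10 ratio of each probe (vertical axis, mouse over pool), with wild types in grey, knockouts in orange, a symbol for each mouse number and a bar at each group mean. The 3 knockout values of Atf4, from 0.0734 to 0.0895, lie above its wild-type values, whereas Asns spans 0.579 with both genotypes spread over the same range.

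Asns, asparagine synthetase and the classical target of amino acid shortage, gave -0.165, -0.127, 0.175 and -0.377 in wild-type livers 1 to 4 and -0.404, 0.165 and -0.0773 in knockout livers 2, 3 and 4. Wild type 3 and knockout 3 were high, wild type 4 and knockout 2 were low, and the genotypes overlapped throughout. From the lowest mouse to the highest the ratios were 3.80-fold apart in base 10. The SD over the 7 mice, 0.231, was above that of 99.7% of probes, so Asns was among the most variable readings of the arrays. The difference between genotypes was 0.0177 ± 0.157 (SE), with a 95% interval from 0.450-fold to 2.41-fold in base 10. It was -0.118 without knockout 3 and 0.167 without knockout 2, -0.0667 without wild type 4 and 0.117 without wild type 3. Its values without knockout 4, wild type 1 and wild type 2 were 0.00368, 0.00393 and 0.0166.

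Phgdh and Psat1 encode the first steps of serine synthesis and sit beside Asns among ATF4 targets, yet they varied little. Phgdh read 0.0392, -0.0031, 0.0121 and -0.0147 in the wild types and 0.0729, 0.0306 and 0.0281 in the knockouts. Only knockout 2 exceeded all wild types, since wild type 1 was above the other knockouts, and the difference was 0.0355 ± 0.0211 (SE), or 0.0210 without knockout 2. The first Psat1 probe gave -0.0111, -0.0116, 0.0314 and 0.0112 in the wild types and 0.0408, 0.0321 and 0.0495 in the knockouts. Its groups did not overlap, although knockout 3 and wild type 3 were nearly equal, and the difference was 0.0358 ± 0.0182 (SE). The second Psat1 probe gave 0.0025, -0.0353, -0.0019 and 0.0250 against 0.0384, 0.0150 and 0.0047. In that probe the groups overlapped, and the difference was 0.0218 ± 0.0203 (SE), so the 2 probes disagreed on whether the groups were apart. It was 0.0123 without knockout 2 and 0.0108 without wild type 2.

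Chac1, an enzyme that degrades glutathione and is an ATF4 target, gave -0.0052, 0.0164, -0.134 and -0.0186 in the wild types. The knockouts gave 0.0414, 0.0093 and 0.0249. Knockouts 2 and 4 were above every wild type, and knockout 3 was below wild type 2. The difference of 0.0605 ± 0.0361 (SE) rested in part on the low reading of wild type 3, for without that mouse it was 0.0277. Sesn2, a stress-induced inhibitor of mTORC1 that senses leucine, gave -0.0228, -0.0165, 0.0211 and 0.0246 in the wild types and 0.0613, 0.0233 and 0.0242 in the knockouts. Knockout 2 alone lay above all wild types, and the difference was 0.0347 ± 0.0209 (SE), or 0.0222 without that mouse. Ppp1r15a (GADD34), the phosphatase subunit that reverses eIF2 phosphorylation and so ends the response, gave -0.0074, -0.0022, 0.0303 and 0.0212 in the wild types. It gave 0.0510, 0.0199 and 0.0303 in the knockouts, which overlapped the wild types, with a difference of 0.0233 ± 0.0184 (SE), or 0.0146 without knockout 2.

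All 10 probes had a higher mean in the knockouts, with differences from 0.0177 to 0.0795 and a median of 0.0351. Over all probes of the arrays, 57.0% had a higher knockout mean and the median difference was 0.00555. By limma, with Benjamini-Hochberg adjustment over all 23574 probes, 0 of the 10 passed a threshold of 0.05, where 0.00424% of all probes did. At an unadjusted p under 0.05 limma listed 1 of the 10, Atf4, against 4.47% of all probes, and the ordinary test listed 2 of the 10, against 4.03% of all probes, and called 0 after adjustment. All knockouts lay above all wild types in 2 of the 10 probes, Atf4 and the first of Psat1, against 2.71% of all probes. The genes were picked with this contrast in view, so nothing is read from these counts. The labels describe separate animals, and with 7 arrays the precision is limited.

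**Figure D2:**
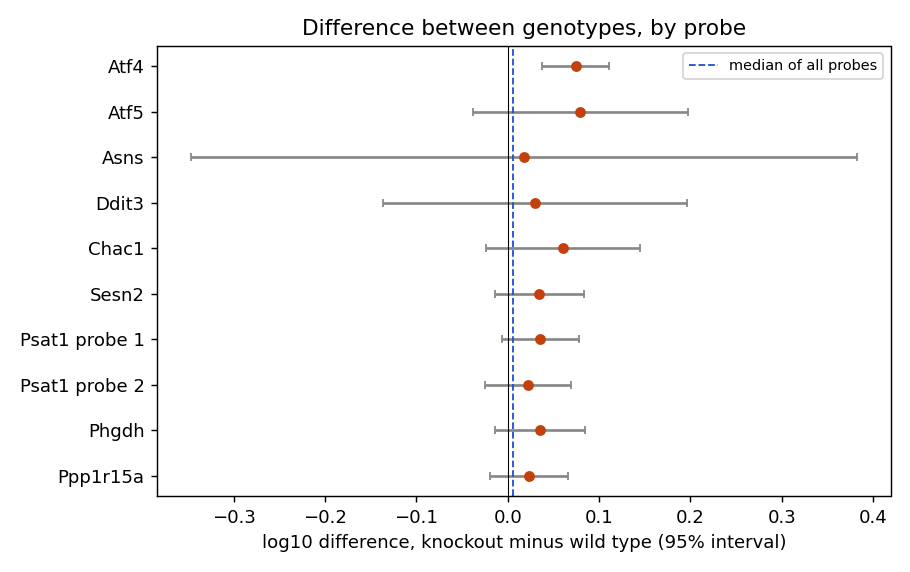
The plot of differences gives knockout minus wild type for each probe on the log10 scale, with its 95% interval from the moderated fit and a dashed line at the median of all probes, 0.00555. The interval of Atf4 is the shortest, from 0.0378 to 0.111, and that of Asns, from -0.347 to 0.383, is the widest.

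Knockout liver 2 gave the highest of the 7 values in 7 of 10 probes, all but Atf4, Asns and the first of Psat1. This array was the highest in 29.0% of all probes and had the widest spread over probes, with an SD of 0.0975 against 0.0466 to 0.0676 on the others. The median over the 10 probes was 0.0562 in knockout 2, 0.0216 in knockout 3 and 0.0292 in knockout 4. It was -0.00135, -0.00735, 0.0166 and 0.00615 in wild types 1 to 4. The genes were picked with this contrast in view, so nothing is read from these medians. Over all probes the array medians were 0.0139, 0.0064 and 0.0054 in knockouts 2 to 4. They were 0.0017, -0.0008, 0.0075 and 0.0072 in wild types 1 to 4. The mean over the 10 probes was highest in knockout 4, at 0.0390, with 0.0241 in knockout 2. Without knockout 2 the median difference was 0.0290 and that of Atf4 was 0.0733. Over the whole arrays, probes of low scatter more often had a higher knockout mean than probes of high scatter. When all probes were sorted by SD over the 7 mice into 4 bins of equal size, the lowest bin had a higher knockout mean in 64.2% of probes, the second in 65.0%, the third in 56.4% and the highest in 42.4%. The set had 3, 2, 1 and 4 of its probes in these bins.

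Whether the other genes varied with Atf4 from mouse to mouse was tested within genotype, on deviations from the genotype means, which leaves out the contrast that was known when the genes were chosen. Psat1 was taken as the mean of its probes. Over the 7 mice Pearson's r was 0.722 for Ddit3 (exact permutation within genotype, two-sided, p = 0.146) and 0.695 for Atf5 (exact permutation, p = 0.139). Spearman's rho was 0.464 (exact permutation, p = 0.396) and 0.821 (exact permutation, p = 0.0694). Phgdh followed with an r of 0.582 and a rho of 0.536 (exact permutation, p = 0.236 and 0.285). Asns, the most variable target, had an r of 0.0408 and a rho of 0 (exact permutation, p = 0.931 and 1). None of the 8 relations passed, with a smallest adjusted p of 0.583 for r and 0.556 for rho. With 144 arrangements the smallest p is 0.00694, or 0.0556 for a single relation adjusted over 8. No relation could therefore pass on its own, but only together with others.

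Chac1 had an r of -0.310 and a rho of 0.0714, Sesn2 -0.0172 and -0.250, Psat1 0.225 and 0.0714, and Ppp1r15a 0.198 and -0.0357. Their exact permutation p values for r were 0.792, 0.979, 0.646 and 0.743, and for rho 0.917, 0.604, 0.896 and 1. Knockouts 2 and 4 were farthest from the median of Atf4. Leaving both out leaves knockout 3 with no deviation of its own, so r then describes the 4 wild types alone, at 0.496 for Ddit3, 0.563 for Atf5, 0.890 for Phgdh and 0.627 for Asns. It was -0.530 for Chac1, -0.181 for Sesn2, 0.184 for Psat1 and -0.00779 for Ppp1r15a. Over 10 alternatives, the other normalizations and each mouse left out in turn, r stayed above 0 for Atf5, from 0.109 under quantile normalization to 0.860 without wild type 3, and for Phgdh, from 0.277 under scale normalization to 0.919 without knockout 4. It changed sign for the other 6 genes. Ddit3 ran from -0.427 under quantile normalization to 0.901 without wild type 4, and Asns from -0.277 without wild type 3 to 0.647 without knockout 3. Chac1 ran from -0.536 without knockout 3 to 0.271 without wild type 3, and Sesn2 from -0.513 under median centring to 0.318 without wild type 1. Psat1 ran from -0.208 without wild type 2 to 0.639 without wild type 4, and Ppp1r15a from -0.314 under quantile normalization to 0.607 without wild type 1. Since Atf4 hardly varied within a genotype, these relations compare scatter that is small beside that of Asns, Ddit3 and Atf5.

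Among 17814 other named probes, those whose pattern over all 7 mice was most like Atf4 were Tacc2 (r = 0.970), Amigo1 (r = 0.970), Klf11 (r = 0.966), Atf6b (r = 0.953) and Wdr74 (r = 0.947). Tacc2 encodes a centrosomal protein, Klf11 a Krüppel-like transcription factor and Atf6b a relative of the stress sensor ATF6. All of them were low in the 4 wild types and high in the 3 knockouts, as Atf4 was. Tacc2 read from -0.0213 to 0.0062 in the wild types and from 0.152 to 0.214 in the knockouts, but its other probe had an r of 0.234. Atf6b read from -0.0122 to 0.0006 and from 0.0361 to 0.0741. The probes most like Asns were Pfkm (r = 0.977), the muscle-type phosphofructokinase, Cep20 (r = 0.954), Vmn1r212 (r = 0.950), Olfr1250 (r = 0.949) and Slco6c1 (r = 0.937). Pfkm gave -0.0191, 0.0021, 0.106 and -0.0681 in the wild types and -0.0592, 0.109 and -0.0025 in the knockouts, high and low in the same mice as Asns. A high r says nothing of size. Vmn1r212 and Olfr1250 had SDs over the 7 mice of 0.0256 and 0.0317, below the median of all probes, 0.0364. Those of Pfkm, Cep20 and Slco6c1 were 0.0718, 0.0775 and 0.0862. With 7 arrays and so many probes, values of r this high describe these mice only.

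**Figure D3:**
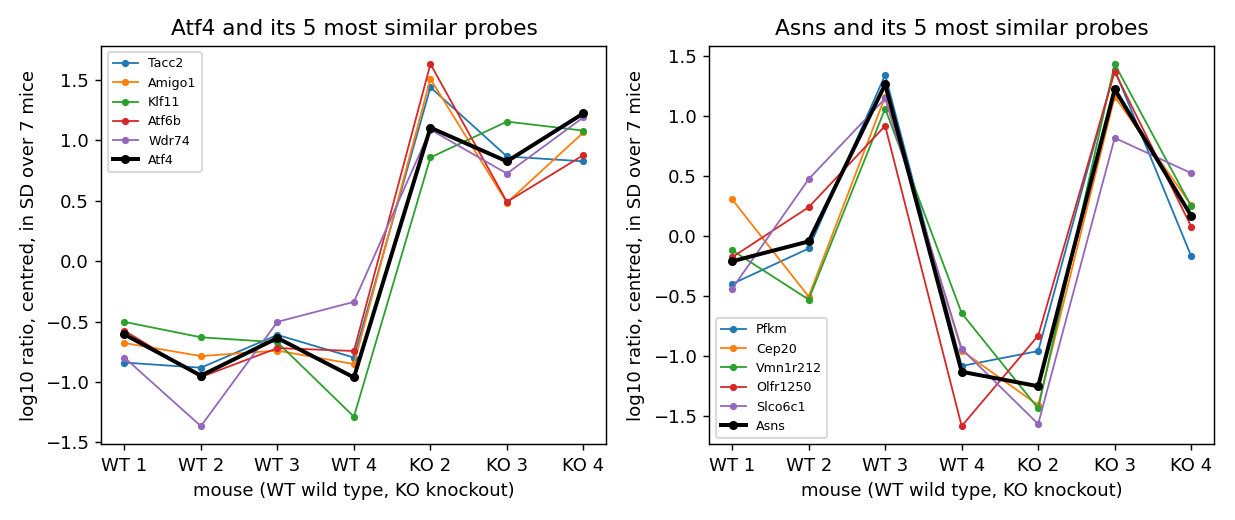
The plot of similar patterns gives, for Atf4 on the left and Asns on the right, the log10 ratio of each mouse centred and divided by the SD over the 7 mice, with the 5 most similar probes as coloured lines and the gene in black. The lines of Atf4 step up from wild types to knockouts, with r from 0.947 to 0.970, while those of Asns peak in wild type 3 and knockout 3, with r from 0.937 to 0.977.

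The rest of the pathway was read through 7 lists with 107 probes of 101 genes, which do not include the 10 genes. By limma 0 of the 107 probes passed, with a smallest adjusted p of 0.884, and 3 were below an unadjusted p of 0.05, all higher in the knockouts. These 3 are 2.80% of the list probes, where 4.47% of all probes were at that level. The ordinary test put 2 there, where 4.03% of all probes were, and called 0. A higher knockout mean was found in 67 of 107, and the median difference was 0.0155.

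Upstream of ATF4, the eIF2 kinases, the subunits of eIF2 and its exchange factor eIF2B and their partners had 7 of 17 probes higher in the knockouts and 10 lower, with a median difference of -0.00196 (0.00805 without knockout 2). Ppp1r15b, the constitutive counterpart of Ppp1r15a, read -0.0339, 0.0263, 0.0634 and 0.0448 in the wild types and -0.0220, -0.0306 and -0.0147 in the knockouts. Wild type 1 was the lowest of all, and the difference was -0.0476 ± 0.0253 (SE). The eIF2B subunit genes Eif2b2 and Eif2b4 differed by 0.0405 ± 0.0251 and 0.0377 ± 0.0272 (SE), and the adaptor gene Nck1 by -0.0876 ± 0.0591.

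Downstream, other ATF4 targets had 11 of 17 probes higher, with a median difference of 0.0320. The list means did not follow genotype. They ran from -0.0253 to 0.04555 in the knockouts, inside the wild-type range of -0.0390 to 0.0620, and knockout 4 had the lowest knockout mean. Xpot, the exporter of tRNA from the nucleus, gave 0.0887, -0.0011, -0.0367 and 0.0073 in the wild types and -0.156, 0.0178 and -0.125 in the knockouts, so that knockouts 2 and 4 were below every wild type and knockout 3 was not. Its difference was -0.103 ± 0.0468 (SE), and those of Jdp2, Stc2 and Vegfa were 0.0564 ± 0.0328, 0.0320 ± 0.0188 and 0.0624 ± 0.0384.

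The cytosolic aminoacyl-tRNA synthetases, which charge tRNA with amino acids, had 17 of 21 probes higher, with a median of 0.0182, or 11 of 21 with a median of 0.00753 without knockout 4. Of the 21, 2 were below an unadjusted p of 0.05 by limma, against 4.47% of all probes, and 0 passed after adjustment. Farsa, a subunit of the phenylalanine enzyme, gave -0.0286, -0.0133, 0.0053 and -0.0058 in the wild types and 0.0704, 0.0148 and 0.0520 in the knockouts, with no overlap and a difference of 0.0563 ± 0.0198 (SE). Yars, the tyrosine enzyme, differed by 0.0835 ± 0.0334 and read 0.155 in knockout 4 against 0.0102 and 0.0459 in the other knockouts. The list mean was 0.0686 in knockout 4, and -0.00769 and 0.00970 in knockouts 2 and 3, which lay within the wild-type range of -0.0159 to 0.0212.

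Amino acid transporters had 11 of 13 probes higher, with a median of 0.0246, or 8 of 13 with a median of 0.0151 without knockout 2. Slc7a5, the light chain of the large neutral amino acid transporter, gave -0.0718, 0.0359, -0.0104 and 0.0159 in the wild types and 0.0535, 0.0479 and 0.0657 in the knockouts. The groups did not overlap, and the difference was 0.0633 ± 0.0272 (SE), the third probe below an unadjusted p of 0.05 and not past the adjusted threshold. The glutamine carrier gene Slc1a5 differed by 0.0661 ± 0.0324. The list means, from 0.0181 to 0.0302 in the knockouts, lay above those of all wild types, which reached 0.0174.

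Enzymes of serine, proline and folate metabolism other than Phgdh and Psat1 had 6 of 10 probes higher, with a median of 0.00577 (-0.00399 without knockout 2). Mthfd2, the mitochondrial folate dehydrogenase, read 0.261 in knockout 4 and -0.0625 and -0.0529 in the other knockouts, and -0.0539 ± 0.0491 (SD) in the wild types. Sensors and chaperones of the unfolded protein response had 12 of 21 higher, with a median of 0.00857. The list mean was 0.117 in knockout 4 and -0.126 and -0.0896 in knockouts 2 and 3, against -0.0807 to 0.0148 in the wild types. Dnajb9, a chaperone of the endoplasmic reticulum, differed by -0.168 ± 0.0742 (SE) and Calr (calreticulin) by 0.112 ± 0.0605. Without knockout 4 the count was 4 of 21 and the median -0.0658, and without knockout 2 they were 16 and 0.0744. Targets of the antioxidant factor NRF2, which shares the cystine carrier Slc7a11 with ATF4, had 4 of 9 higher, with a median of -0.0155 (0.0164 without knockout 2 and 0.00910 without knockout 4).

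**Figure D4:**
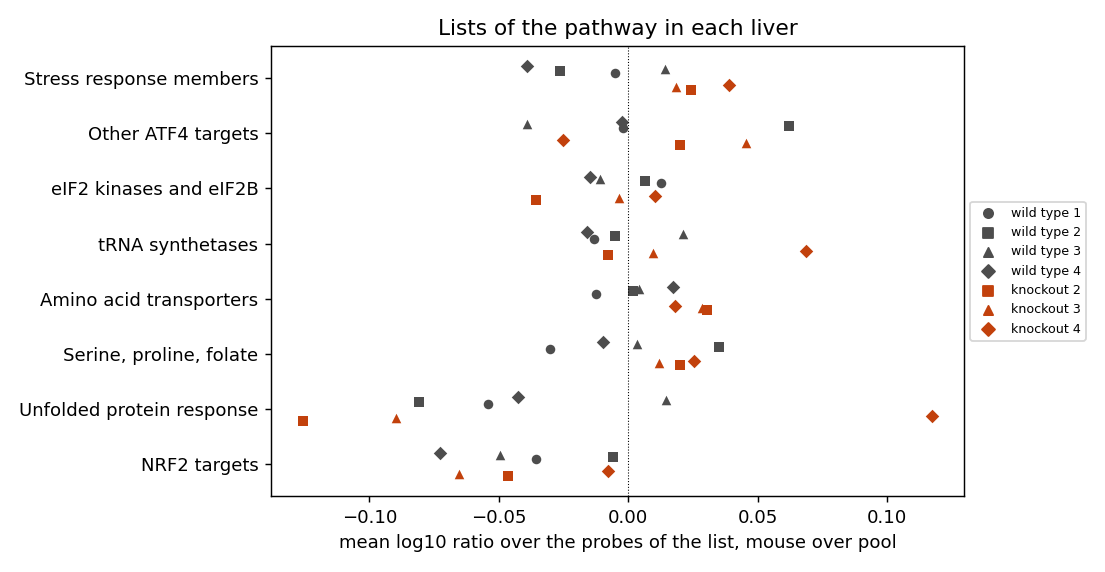
The plot of list means shows, for each list, the mean log10 ratio over its probes in each mouse (horizontal axis, mouse over pool), with wild types in grey and knockouts in orange. Knockout 4 stands far to the right in the unfolded protein response, at 0.117, and in the tRNA synthetases, at 0.0686, and the transporters' knockout means lie just right of every wild type.

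Markers of other cell types differed between the mice as well. The mean of macrophage markers was 0.116 in knockout 4, -0.130 and -0.171 in knockouts 2 and 3, and -0.237 to -0.0647 in the wild types, with 12 of 13 probes higher in the knockouts. Endothelial markers were higher in 10 of 12 probes, with means of -0.0246 to 0.0405 in the knockouts and -0.0576 to 0.0144 in the wild types. Stellate cell markers were higher in 8 of 10 (-0.0100 to 0.0357 and -0.0721 to -0.0139) and lymphocyte markers in 8 of 10 (-0.0387 to 0.0144 and -0.0310 to 0.0165). Neutrophil markers were higher in 5 of 8 (-0.0573 to 0.0496 and -0.0397 to 0.00255), bile duct markers in 3 of 7 (-0.0486 to 0.00831 and -0.0788 to 0.174) and hepatocyte markers in 6 of 9 (-0.0435 to 0.0395 and -0.0320 to 0.0206). Acute phase genes were higher in 18 of 20, with a median difference of 0.0663 and means of -0.0816 to 0.211 in the knockouts and -0.120 to 0.112 in the wild types. Female-biased genes were higher in 0 of 13, with a median difference of -0.0974 and means of -0.291 to 0.00963 and -0.120 to 0.121. In both the extreme knockout was number 4. The part of any of these in the stress genes was not tested, and in whole liver a change in the number of cells cannot be told apart from a change in RNA per cell. For Atf4 the difference without knockout 4 was 0.0709. Asns alone of the 10 genes lies on the chromosome of C3ar1, and none of the 10 lies within 20 Mb of it.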

How the data were processed

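The deposited table held log ratios of 7 arrays in 2 colours, with 23574 probes and no missing value. Per the labels, RNA from spin columns was DNase-treated, amplified and coupled through aminoallyl groups to Cy3 (channel 1) and Cy5 (channel 2). The series' design text mentions a dye-swap, but the sources used here do not say whether a column combines the swapped arrays, and scanner software, background correction and normalization are not given there either. The log base and direction are unstated and were taken as 10 and mouse over pool, and how the authors centred the deposited log10 values is unknown. The column medians were 0.0017, -0.0008, 0.0075 and 0.0072 for wild types 1 to 4 and 0.0139, 0.0064 and 0.0054 for knockouts 2 to 4.

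Probes were named through the platform annotation, updated by Entrez number (17724 probes), by accession (21) or not (79), giving 17824 with 1 symbol. A further 50 had several and 5700 no listed gene. The table had 0 unused value columns, and no 2 arrays shared over 0.119% of values.

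All probes were fitted at once with limma 3.58.1 (R 4.3.3, lmFit and eBayes, knockout minus wild type, two-sided). In simulated data of 23574 probes for this comparison, changes of 0.1, 0.2, 0.4 and 0.8 were recovered in 8%, 74%, 98% and 100% of 50 probes each. The members, lists and tests were chosen with earlier results of these data known. Every member is named, with up to 4 genes of smallest p for each list and the 5 probes of highest r for Atf4 and Asns.

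The alternatives were 3 other normalizations, a filter on variation, averaged probes, array weights, a robust fit, an ordinary test, a replicate block and each mouse left out. The list values without knockout 2 or 4 were added after the data were seen.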

Additional observations from a re-analysis of the deposited data

Results flagged for a closer look

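Ddit3 in wild-type liver 2 was the single value among the 10 probes to stand apart from the other wild types by Dixon's criterion for 4 samples. It read -0.105 where the others read 0.0026 to 0.0188, and its gap to the nearest was 0.869 of the range, above the critical value. Chance flags about 1 in 20 groups, and 10 were looked at.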

How the results depend on the processing

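Atf4 kept a positive difference under all 16 alternatives, from 0.0656 after quantile normalization to 0.0790 without knockout 3, and its adjusted p by limma or the ordinary test ranged from 0.519 to 0.9998, so it was never called. The median difference of the 10 probes ranged from 0.0244 with array weights to 0.0416 without knockout 3. Of the 10 probes, 0 were called under any alternative, and likewise 0 probes of the pathway lists. Asns turned negative in 2 of 16 alternatives and ranged from -0.118 to 0.188 (array weights), and Ddit3 in 3 of 16, from -0.0883 (array weights) to 0.124. The remaining probes stayed positive, with Atf5 from 0.0241 (array weights) to 0.125. The number of probes called over the whole arrays, 1 in the reported fit, was 3 when the least variable 25% of probes were dropped, 0 after quantile or scale normalization, in the ordinary test and with a replicate block, and 0 to 3 when single mice were left out. The median difference of all probes was 0.00555 and fell to 0.000883 with median centring. The mouse numbers gave no sign of pairing the genotypes. Deviations of same-numbered mice correlated at -0.137, -0.205 and -0.154, and 0 of 6 mice correlated best with its own number. With 3 shared numbers, such correlations cannot show that the mice were unpaired. In the replicate block, the difference was 0.0768 for Atf4 and 0.0333 for the median of the 10 probes. The tests have 3 knockouts, and signal over background was not analysed here, so a weakly hybridised probe cannot be told from a stable gene.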
